A study of Mus musculus with 12 samples.

Results

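Translation initiation factors are the proteins that bring the small ribosomal subunit, the initiator tRNA and an mRNA together and set the ribosome on the start codon. Their genes were followed here through N6-methyladenosine (m6A), a base modification of mRNA written by a complex around METTL3, often within GGAC and often close to stop codons and in 3′ UTRs. All genes named Eif1 to Eif6 in the deposited peak lists were taken, leaving out the Eif2ak kinases, which phosphorylate an initiation factor but are none, and names that mark pseudogenes. This gave 49 genes of 14070 with a peak, holding 168 of 41153 peaks in the list from Mettl3-knockout (KO) cells treated with lipopolysaccharide (LPS) and 142 of 36682 peaks in the list from wild-type (WT) cells treated with LPS. The cells are BV2, an immortalised mouse microglial line, and LPS is a bacterial cell wall component that activates such cells. The study sequenced 12 libraries in 4 groups of 3 replicates: antibody pull-down (IP) and input from Mettl3 KO cells with LPS, and IP and input from WT cells with LPS. No group without LPS was analysed here. How Mettl3 was knocked out, whether the KO line is 1 clone, and the dose and time of LPS were not stated in the labels used here.

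The values are 1 peak list per genotype. Each peak carries the authors' log2 of IP over input, so that a log2 of 1 is a doubling, and the authors' adjusted p-value for that enrichment. Its region is the authors' annotation and need not give its position in the gene. A WT peak of Eif2b1 annotated 3′ UTR, for example, begins 381 bases from the gene start. No value belongs to a single library, so nothing below has a replicate error or a test between the genotypes, and every difference (KO minus WT) describes these lists. Depth per library is unknown. The lists hold no RNA level, so a change in methylation, in RNA amount and in the yield of the pull-down cannot be told apart, nor can the knockout itself be checked from them. Of 11 microglia and macrophage markers, 10 had a peak in each list and P2ry12 had none. Tubb3 was 1 of 7 neuronal and neuroblastoma markers with a peak, Mbp 1 of 5 of the oligodendrocyte lineage, and 0 of 4 astrocyte markers had one. A missing peak says nothing about the RNA level.

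Initiation works through a series of assemblies, and the results follow them in that order. eIF1, eIF1A and eIF5 act in scanning and start codon choice. eIF2 delivers the initiator tRNA as a complex with GTP, and eIF2B recharges it. eIF3 is a large scaffold on the small subunit. The cap-binding eIF4E, the scaffold eIF4G and the helicase eIF4A make up eIF4F, and the 4E-BP proteins hold eIF4E away from eIF4G. Joining of the large subunit is helped by eIF5B. In immune cells these steps are known to set which mRNAs are translated after a stimulus, through phosphorylation of eIF2 and through mTORC1, the kinase complex that acts on the 4E-BPs.

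Almost every initiation factor gene with a peak in WT cells still had one in KO cells. A peak was present in both lists for 48 of the 49 genes. The only exception was Eif2c5, with 1 WT peak at a log2 of 0.78 in a noncoding-RNA exon on the X chromosome and none in the KO list; the authors' description names it factor 2C, an old name of the Argonaute family, which is not part of the initiation machinery. A peak in KO only was thus found for 0 of 49 genes, where 5.02% of all genes with a peak had that pattern, and in WT only for 1 of 49, against 7.41% of all genes. Eif2s3y, Eif4e1b and Eif5a2 are further family names looked for and had no peak in either list.

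By its strongest peak, 25 of the 48 genes had the lower value in the KO list (52.1%, 95% Wilson interval 38.3 to 65.5, for counting of genes only), where 73.4% of 12320 genes with a peak in both lists did. The other 23 were higher in KO, where 26.6% of all genes were. The median difference was −0.01 (interval of the median −0.17 to 0.03), beside −0.25 over all genes. The median level of the strongest peak was 0.93 in KO and 1.05 in WT, against 1.08 in KO and 1.34 in WT over all genes. This split depends on how a gene is summarised. When the peaks of a gene were averaged, 36 of 48 were lower in KO (75%), where 77.2% of all genes were, and the median difference was −0.09 beside −0.17. The mean also takes in peaks without an overlapping peak in the other list, 43 in KO (median 0.47) and 19 in WT (0.78). It is thus not a comparison at the same sites. With the widest peak, 32 of 48 were lower (66.7%), against 73.5% of all genes. Relative to the shift of all genes (−0.25), 13 of the 48 were lower, where 50% of all genes are by construction, and the medians of all role lists were above 0 except those of the eIF4G genes (−0.20) and the eIF4E-binding genes (−0.14).

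Large differences were few and all downwards in KO, as most of them were over all genes (1175 lower and 88 higher by 1 or more). In 33 of 48 genes (68.8%) the strongest peaks differed by less than 0.25, where 42.4% of all genes did. Lower by 1 or more in KO were 3 genes, Eif2s1, Eif1a and Eif4ebp1, where 9.54% of all genes passed that size. Higher by 1 or more were 0 genes, against 0.714% of all genes. The genes with the weakest peaks were mostly not lower: of those with a mean of both lists under a log2 of 1, 8 of 23 were lower in KO (34.8%), against 56.9% of all genes in that range. Between 1 and 1.5 the count was 10 of 17 (58.8%), against 74.6%. At 1.5 or above, 7 of 8 were lower (87.5%), about the 88.0% of all genes, with a median of −0.39 beside −0.71.

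**Figure D1:**
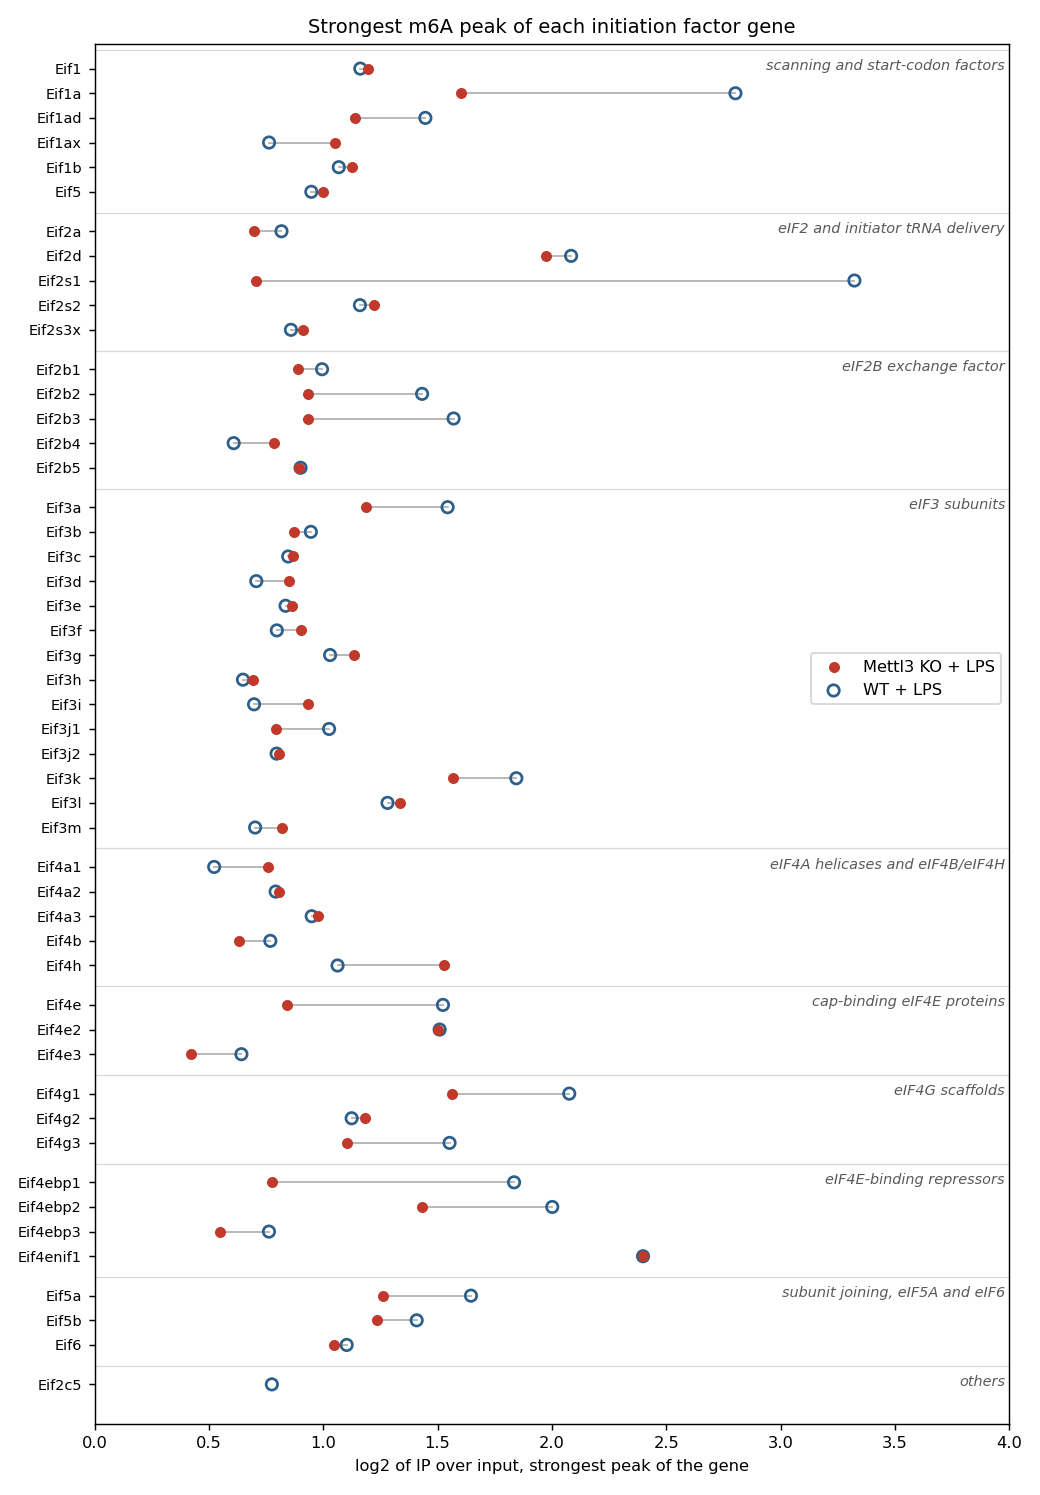
The log2 of IP over input of the strongest peak of each of the 49 genes is drawn on the horizontal axis, grouped by role down the page, with filled points for the Mettl3 KO list and open points for the WT list; a line joins the values of a gene and there are no error bars, since each list gives 1 value. Most pairs lie within 0.25 of each other, while Eif2s1 (0.71 in KO, 3.32 in WT) and Eif1a (1.60 in KO, 2.80 in WT) are far apart.

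Of the scanning factors, 2 of 6 had the lower KO value (median difference 0.04), where 73.4% of all genes did (−0.25). With the mean over peaks, 4 of 6 were lower. Eif1a, which encodes an eIF1A that promotes scanning, had a strongest peak of 1.60 in KO and 2.80 in WT, annotated 3′ UTR. That peak begins 775 bases from the gene start in KO and 800 in WT. The difference of −1.20 sat at the same place in both lists. This peak spanned over 10 kb of genome, and Eif1a and the X-linked Eif1ax are close copies, so reads may be shared between them. With peaks of at most 1000 bases alone, the difference for Eif1a was −0.01. Eif1ax itself had 1.05 in KO and 0.76 in WT, at 3′ UTR sites that did not overlap, and its order turned with the mean over peaks (−0.04) and with the widest peak (−0.08).

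Eif1ad, whose product shares an eIF1A-like fold, had 1.14 in KO and 1.45 in WT. With short peaks alone that order turned, to 0.08. Eif1, whose product monitors the start codon, had the same peak coordinates in both lists, chr11:100321849-100322096 in the 3′ UTR. Its log2 there was 1.19 in KO and 1.16 in WT. The values are nearly level at a site where the called interval is identical.

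Eif2s1 held the largest difference of any initiation factor gene. It encodes eIF2alpha, the subunit whose phosphorylation restrains initiation under stress. Its highest KO peak was in the 5′ UTR at chr12:78861819-78861993, at 0.71 or 1.63-fold (adjusted p = 0.00543 in the authors' deposited table). In the WT list the 5′ UTR peak was longer, chr12:78861819-78862368, at 2.13, and an intronic peak of 3.32 followed just downstream at chr12:78862444-78863043 (adjusted p = 1.92e-20 in the authors' deposited table), which the KO list lacked. The difference was −2.61 between the strongest peaks, which lie at neighbouring sites, and −1.42 between the overlapping 5′ UTR peaks. At the other end of the gene the lists were close: the strongest 3′ UTR peak had 0.62 in KO and 0.80 in WT. With the mean over all its peaks, the difference was −1.02.

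The other eIF2 genes did not show this. Eif2d, whose product can deliver tRNA without eIF2, had a high peak in both lists, 1.97 in KO and 2.08 in WT, and its order turned with the widest peak (0.07). Eif2s2, the beta subunit, had 1.22 in KO and 1.16 in WT, from a 5′ UTR peak in KO and an exonic peak in WT. Within the 5′ UTR of Eif2s2 the values were 1.22 in KO and 0.87 in WT, the largest difference upwards among same-place pairs. Peaks of Eif2s2 overlap peaks of Raly and a on the opposite strand. Eif2a, an alternative tRNA carrier, had 0.70 in KO and 0.82 in WT at sites in different regions, with the other order for short peaks alone (0.14). In all, 3 of 5 eIF2 genes were lower in KO (median difference −0.11), where 73.4% of all genes were (−0.25). The eIF2 median was 0.01 with the widest peak.

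Of the 5 subunits of eIF2B, the exchange factor that returns eIF2 to its active form, 4 were lower in KO (median difference −0.11). Over all genes 73.4% were lower, with a median of −0.25. With the widest peak only 2 of 5 were lower. Eif2b3 had 0.93 in KO and 1.57 in WT. The WT value came from a run of 3′ UTR peaks between 117070830 and 117072304 of chromosome 4 that the KO list lacked, while the pair at the gene's end had 0.93 in KO and 0.88 in WT and the widest peak gave 0.01. Eif2b2 had 0.93 in KO and 1.43 in WT at the same 3′ UTR site. Eif2b4 was the only one higher in KO, with 0.79 in KO and 0.61 in WT. Eif2b1 had 0.89 in KO and 0.99 in WT.

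The 14 eIF3 genes had nearly level values. The strongest peak was lower in KO in 4 of them, and 12 of 14 differed by less than 0.25, with a median of 0.04. Over all genes 73.4% were lower and 42.4% differed by less than 0.25, with a median of −0.25. With the mean over peaks, which also counts peaks called in 1 list only, 10 of 14 were lower, with a median of −0.03. The direction for the complex is not settled. Eif3a, its largest subunit, had 1.19 in KO and 1.54 in WT, from 3′ UTR peaks that span 11174 bases in each list; with short peaks alone the difference was 0.19. Eif3k had the highest eIF3 peak in both lists, 1.57 in KO and 1.84 in WT, in the 3′ UTR. Eif3l had 1.34 in KO and 1.28 in WT, and its order turned with the mean (−0.37), with the widest peak (−0.86) and with short peaks alone (−0.32).

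In some eIF3 genes the strongest peaks of the lists lay at different sites, though the 3′ UTR site was called in both. Eif3i had 0.93 in KO, in an intron, and 0.70 in WT, in the 3′ UTR. Its 3′ UTR peak in KO had 0.87. Eif3d had 0.85 in KO, in the 5′ UTR, and 0.71 in WT, in the 3′ UTR, and no 5′ UTR peak in WT. That KO peak had an adjusted p of 0.0248 in the authors' deposited table, and the 3′ UTR peak of Eif3d in KO had 0.80. The mean over peaks gave −0.04 for Eif3i and −0.01 for Eif3d. Eif3b had a 3′ UTR peak with the same coordinates in both lists, chr5:140443165-140443360, at 0.87 in KO and 0.95 in WT. The near-identical copies Eif3j1 and Eif3j2 may share reads, and their values are uncertain for that reason.

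Among the helicases and their helpers, 1 of 5 was lower in KO by its strongest peak (median 0.03), where 73.4% of all genes were (−0.25). With the mean 4 of 5 were lower (median −0.04), where 77.2% of all genes were (−0.17). Eif4a1, the main eIF4A helicase, had 0.76 in KO, in coding exons, and 0.52 in WT, in the 3′ UTR. At that 3′ UTR site, called alike in both lists, KO had 0.57. The mean over the peaks of Eif4a1 gave −0.06. Eif4a2 had 0.81 in KO and 0.79 in WT. Eif4a3, a relative that sits in the exon junction complex, had the same 3′ UTR coordinates in both lists, chr11:119288363-119288712, at 0.98 in KO and 0.95 in WT. The orders of Eif4a2 and Eif4a3 turned with the mean and with the widest peak.

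Eif4h, whose product stimulates eIF4A, had the largest difference upwards, 1.53 in KO and 1.06 in WT (0.46). The KO value came from a peak of 200 bases near the gene's start, chr5:134639065-134639264, with an adjusted p of 3.48e-04 in the authors' deposited table and no WT counterpart. At the site chr5:134624263-134625193, called alike in both lists, the order was the other way, with 0.95 in KO and 1.06 in WT.

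Each of the 3 cap-binding protein genes with a peak was lower in KO, with a median of −0.22, beside 73.4% and −0.25 for all genes. With the mean over peaks 2 of 3 were. Eif4e, which binds the cap and is the limiting part of eIF4F in many cells, had 0.84 in KO at chr3:138526455-138526854 and 1.52 in WT at chr3:138526505-138527129, both annotated 5′ UTR. The KO list had a further short peak of 0.59 at 138527005 to 138527104, inside the WT interval. In the 3′ UTR of Eif4e the strongest peaks had 0.55 in KO and 0.62 in WT. With its widest peak, a stretch of 16873 bases across introns, the difference was 0.02. Eif4e2, a relative that represses translation, had 1.50 in KO and 1.51 in WT, at different 3′ UTR sites; at the site of the WT peak the values were 1.08 in KO and 1.51 in WT. Eif4e3 was low in both, 0.42 in KO and 0.64 in WT, at 3′ UTR sites that did not overlap.

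Of the scaffolds, Eif4g1 and Eif4g3 were lower in KO and Eif4g2 was not. Eif4g1 had 1.56 in KO and 2.08 in WT, in 3′ UTR peaks that end together at 20692884 of chromosome 16. Upstream, its 5′ UTR pair was level, with 0.93 in KO and 0.88 in WT. Eif4g3 had 1.10 in KO and 1.55 in WT in the 3′ UTR. Eif4g2, also called DAP5, which lacks the eIF4E-binding part, had 1.18 in KO and 1.12 in WT in the 5′ UTR. Its order turned with the widest peak (−0.64) and with short peaks alone (−0.18), but both set different sites against each other. The length limit removed the 5′ UTR peak of KO (1188 bases) and kept that of WT (964 bases). The widest KO peak lay elsewhere, at 0.48. The order of Eif4g1 turned with short peaks alone (0.05).

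Of the eIF4E-binding genes, 3 of 4 were lower in KO (median difference −0.39), where 73.4% of all genes were (−0.25). Eif4ebp1, which encodes the 4E-BP1 repressor, had 0.78 in KO and 1.83 in WT. That WT value rests on a peak of 100 bases, chr8:27276454-27276553, with an adjusted p of 8.33e-05 in the authors' deposited table and no KO counterpart. At its main 3′ UTR site, chr8:27275154-27275803 in KO and chr8:27275104-27275803 in WT, the values were 0.78 in KO and 0.96 in WT. Eif4ebp2 had 1.43 in KO and 2.00 in WT, at overlapping 3′ UTR peaks. Eif4ebp3 had the same coordinates in both lists, with 0.55 in KO and 0.76 in WT.

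Eif4enif1 stood apart from the other repressors. It encodes 4E-T, which binds eIF4E and takes it into the nucleus and to P-bodies. Its peak at the start was the highest of the initiation factor genes in the KO list, and the values at the start of the gene were equal, 2.40 in KO and 2.40 in WT (5.28-fold and 5.27-fold). At the end of the same gene, the 3′ UTR peak had 0.75 in KO and 1.19 in WT. The mean over its peaks was lower in KO (difference −0.22). Peaks of Eif4enif1 overlap peaks of Sfi1 on the opposite strand.

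The late-acting genes were all lower in KO, 3 of 3, with a median of −0.17, beside 73.4% and −0.25 for all genes. Relative to the shift of all genes, 1 of 3 was lower (median 0.07). Eif5a, whose product carries the modified residue hypusine and helps ribosomes past difficult stretches, had 1.26 in KO and 1.65 in WT in the 5′ UTR; in the 3′ UTR the order was the other way, with 0.82 in KO and 0.67 in WT at the same coordinates, and short peaks alone gave 0.14. Pseudogene copies of Eif5a could share its reads, so its values are uncertain. Eif5b had 1.23 in KO and 1.41 in WT, from 5′ UTR peaks spanning over 35 kb of genome. Eif6, which keeps the subunits apart, had 1.05 in KO, in the 3′ UTR, and 1.10 in WT, in the 5′ UTR. Its peaks annotated 3′ UTR with the same coordinates in both lists went both ways. At chr2:155819832-155820031, at the gene's end, the values were 1.05 in KO and 0.91 in WT. At chr2:155825624-155826023, nearer the gene's start, they were 0.85 in KO and 1.04 in WT. Peaks of Eif6, Eif5b, Eif4a2, Eif3d, Eif3m, Eif3j1 and Eif1ad also overlap a peak of another gene on the opposite strand; the libraries were strand-marked. The 13 genes left over by the naming rule, which takes the extreme differences, had differences between −0.23 and 0.12.

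**Figure D2:**
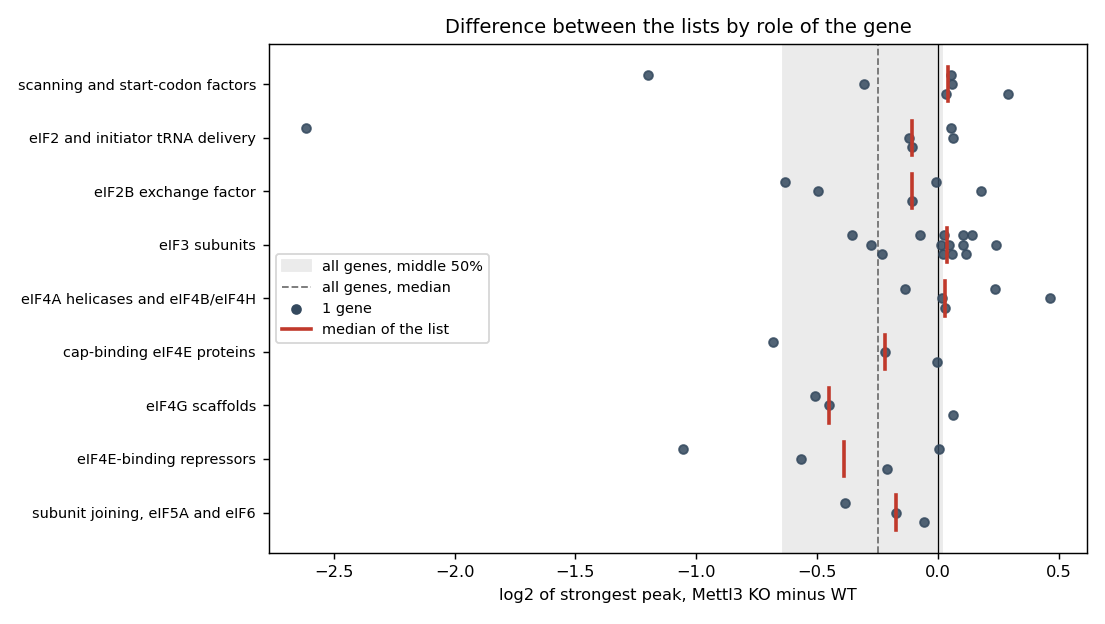
The difference in the log2 of the strongest peak (KO minus WT) is drawn for each of the 48 genes present in both, by role down the page; each point is 1 gene with no error bar, red strokes mark list medians, and the dashed line and grey band mark the median (−0.25) and the middle 50% of all genes. Most eIF3 genes sit near 0, and Eif2s1 (−2.61), Eif1a (−1.20) and Eif4ebp1 (−1.06) lie furthest to the left.

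The sequences at the 5′ ends with a peak are shown for 5 genes, because these sites include the one that differed most (Eif2s1) and a level one (Eif4enif1). The 5′ UTR pairs of Eif2b3, Eif4g1 and Eif4g2 were nearly level too. GGAC is the common core of the m6A motif. Windows from 250 bases before to 50 after each RefSeq start (GRCm38.p6) were searched on the sense strand for GGAC; the peak lists name no build, but all 49 genes overlapped their GRCm38.p6 position. A window was given for 38 of the genes, 50 windows in all, and 16 genes had a window sharing bases with one of their peaks. Inside peaks, 12 GGAC sites lay in 5 genes; 8 of them were within a peak in both lists, 4 within a KO peak only and 0 within a WT peak only. The sites not printed are further ones of Eif5a, Eif4enif1 and Eif4g1, and none of those reads GGACT. A set of 6 follows, made of the Eif2s1 site and every site that reads GGACT, so GGACT is over-represented in it. They are given 5′ to 3′ on the gene's strand, with GGAC in capitals.
Eif2s1, chr12:78861967-78861990, plus strand: catattaggaGGACcaagactcta
Eif4enif1, chr11:3202822-3202845, plus strand: ctgcgtgcgaGGACtgcgcgctac
Eif4enif1, chr11:3202946-3202969, plus strand: gccgacctgtGGACttggtccctg
Eif5a, chr11:69921467-69921490, minus strand: gaagcactacGGACtggaaagggg
Eif4g1, chr16:20672486-20672509, plus strand: tactagggcaGGACtgctttttag
Eif3c, chr7:126566353-126566376, minus strand: ctgctcagagGGACtcggcagctt

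Counted from the RefSeq start of its window, GGAC begins at −95 in Eif2s1, −163 and −39 in Eif4enif1 and −205 in Eif5a. It begins at −231 in Eif4g1 and at 0 in Eif3c. Negative values lie before that start, so such a site is not in an mRNA that begins there. Eif4enif1 and Eif5a have a further RefSeq start upstream of their sites. The Eif2s1 site lies in the part of the peak annotated 5′ UTR that both lists share, at 0.71 in KO and 2.13 in WT. The Eif4enif1 pair lies in the peak with 2.40 in each list, and both copies read GGACT. The printed Eif5a site, 1 of several in that gene, lies in the peak with 1.26 in KO and 1.65 in WT. The Eif4g1 and Eif3c sites lie in peaks of the KO list alone, at 0.78 and 0.55. GGAC is frequent: 41 of 50 windows of these genes held it on the sense strand (82.0%), against 65.6% of all 32851 windows, and 90.0% against 87.7% on either strand. GGACT, which contains GGAC, was in 32% of the windows of these genes and 26.1% of all on the sense strand, and in 42.0% and 45.5% on either strand. Several windows of a gene can overlap, and a match is not evidence of a methylated base.

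**Figure D3:**
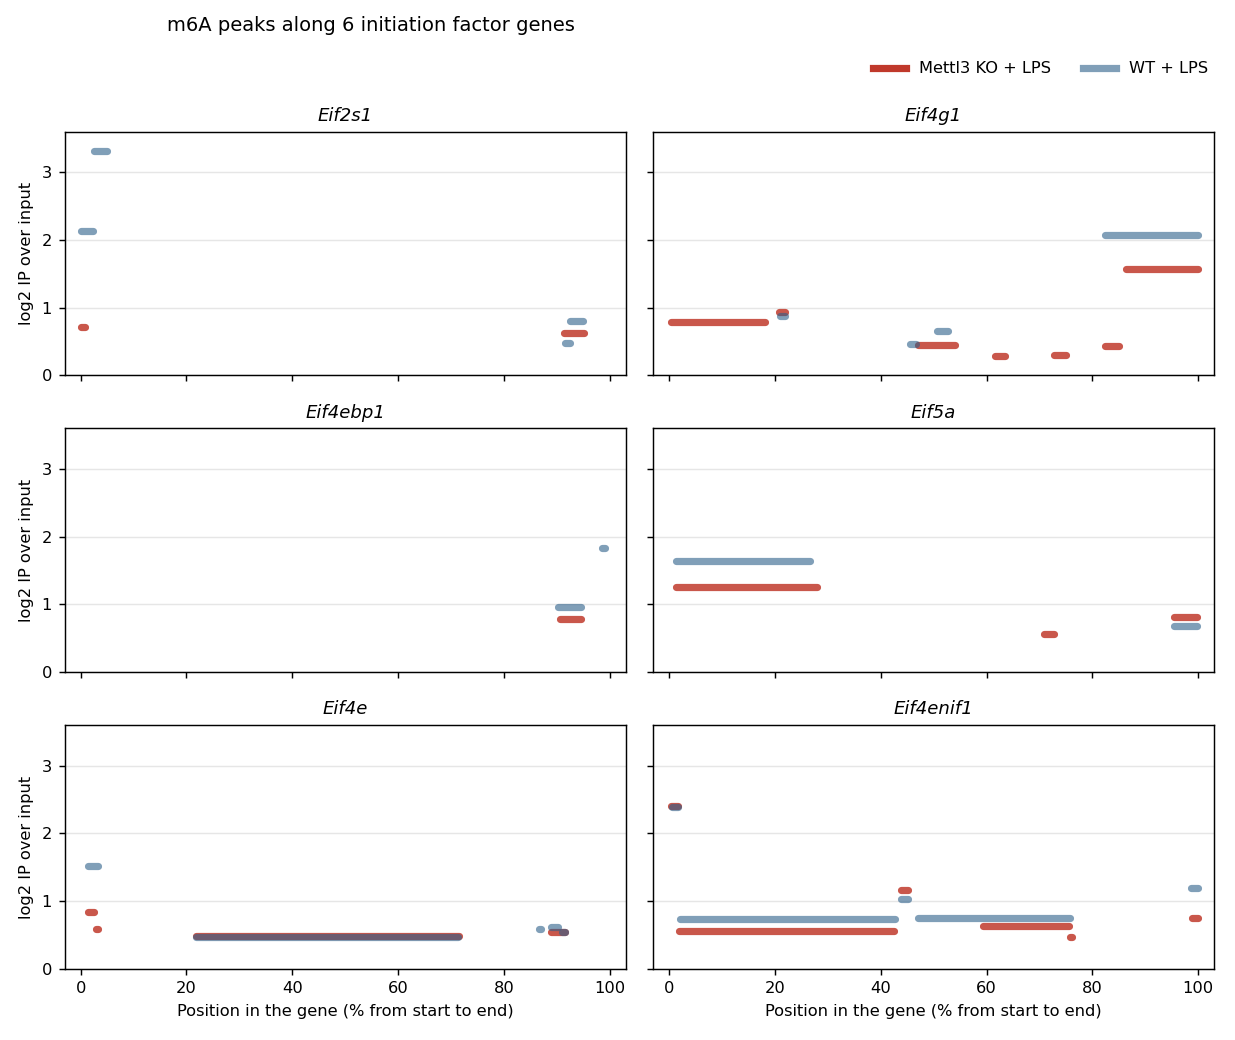
Peaks of Eif2s1, Eif4ebp1, Eif4e, Eif4g1, Eif5a and Eif4enif1 are drawn along each gene as percent of its length from start to end, with the log2 of IP over input as height, for the Mettl3 KO list and the WT list. The peak at the start of Eif2s1 stands at 0.71 in KO and 2.13 in WT, with a separate WT peak of 3.32 beside it, and that of Eif4enif1 stands at 2.40 in both.

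Beyond the strongest peak, the KO list held more and weaker peaks in these genes, as it did over all genes. The median log2 of their peaks was 0.63 in KO and 0.77 in WT, beside 0.70 and 0.83 for all peaks. The KO list had 3.50 peaks per gene and the WT list 2.90, beside 3.16 and 2.75 over all genes. More peaks in KO were seen in 21 genes, more in WT in 8 and equal numbers in 19, a count that was not made over all genes. Of the 168 KO peaks, 125 overlapped a WT peak on the same strand (74.4%, interval 67.3 to 80.4), against 72.9% of all KO peaks. Of the 142 WT peaks, 123 overlapped a KO peak (86.6%, 80.0 to 91.3), against 77.2% of all WT peaks.

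The 43 KO peaks without a partner lay in 26 genes, and 41 of them were below a log2 of 1. Their median was 0.47, beside 0.56 for all KO peaks without a partner. Likewise, the 19 WT peaks without a partner lay in 14 genes, 13 of them below 1. Their median was 0.78, beside 0.74 for all such WT peaks. Peaks below 1 were not counted over all genes. By region, the unpaired KO peaks were exonic in 17 cases, in the 3′ UTR in 13, intronic in 7 and in the 5′ UTR in 6, while 12 of the 19 unpaired WT peaks were in the 3′ UTR. The unpaired peaks of all genes were not split by region, so these counts are not particular to the initiation factor genes. Peaks of 4-fold or more numbered 1 in KO (0.595%) and 7 in WT (4.93%), where 3.93% of all KO peaks and 11.7% of all WT peaks were that high.

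Peaks of the initiation factor genes were mainly annotated 3′ UTR, with 54.2% of KO peaks (46.6 to 61.5) and 64.1% of WT peaks (55.9 to 71.5), beside 51.4% and 53.0% of all peaks. Coding exons held 25.6% of KO peaks and 16.9% of WT peaks, against 25.1% and 21.1% of all. The 5′ UTR held 14.9% in KO and 14.1% in WT, against 11.9% in each list. Introns held 5.36% in KO and 4.23% in WT, against 4.89% and 5.58% of all. The number of 3′ UTR peaks was the same, 91 in KO and 91 in WT; the KO list had more exonic peaks, 43 against 24. All these intervals cover counting of peaks only.

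**Figure D4:**
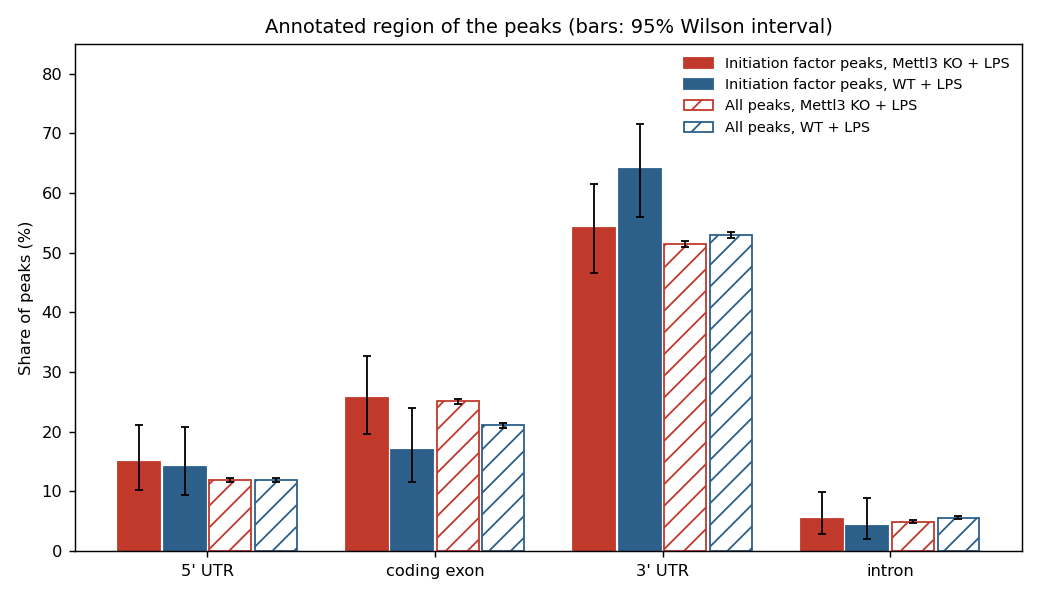
The share of peaks in each annotated region, in percent from 0, is drawn for the initiation factor genes and for all peaks, with Mettl3 KO left of WT and 95% Wilson intervals for the counting of peaks. The 3′ UTR is the largest class in both lists (54.2% in KO, 64.1% in WT).

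Taking regions separately, 16 genes had a 5′ UTR peak in both lists, and the strongest such peak was lower in KO in 9 of them, with a median of −0.13; over all genes 73.2% were lower. Eif2s1, Eif4e and Eif5a were the furthest down, followed by Eif6 with 0.72 in KO and 1.10 in WT, at sites that did not overlap; the overlapping 5′ UTR pair of Eif6 had 0.72 in KO and 0.82 in WT. Eif3c, Eif3d and Eif3g had a 5′ UTR peak in KO only, and Eif2d in WT only. Such genes were not counted over all genes, where 4333 had a 5′ UTR peak in KO and 3901 in WT. For 3′ UTR peaks, 25 of 48 genes were lower in KO (median difference −0.01), where 71.4% of all genes were lower.

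The strongest peaks of a gene overlapped between the lists in 32 genes and lay at different places in 16, a count that was not made over all genes. Peaks at the same place were therefore also compared directly. Of 92 pairs that shared at least 50% of both peaks, 53 were lower in KO (57.6%) and the median was −0.07 (−0.11 to 0.01). Over all 19475 such pairs 69.8% were lower, with a median of −0.12. Of 20 pairs with identical coordinates, 10 were lower in KO (median difference 0.01), where 61.9% of all 2916 identical pairs were lower, with a median of −0.06. The furthest down were Eif1a (−1.20), Eif4e (−0.68), Eif4ebp2 (−0.57) and Eif4g1 (−0.51). The furthest up was Eif2s2 (0.36).

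**Figure D5:**
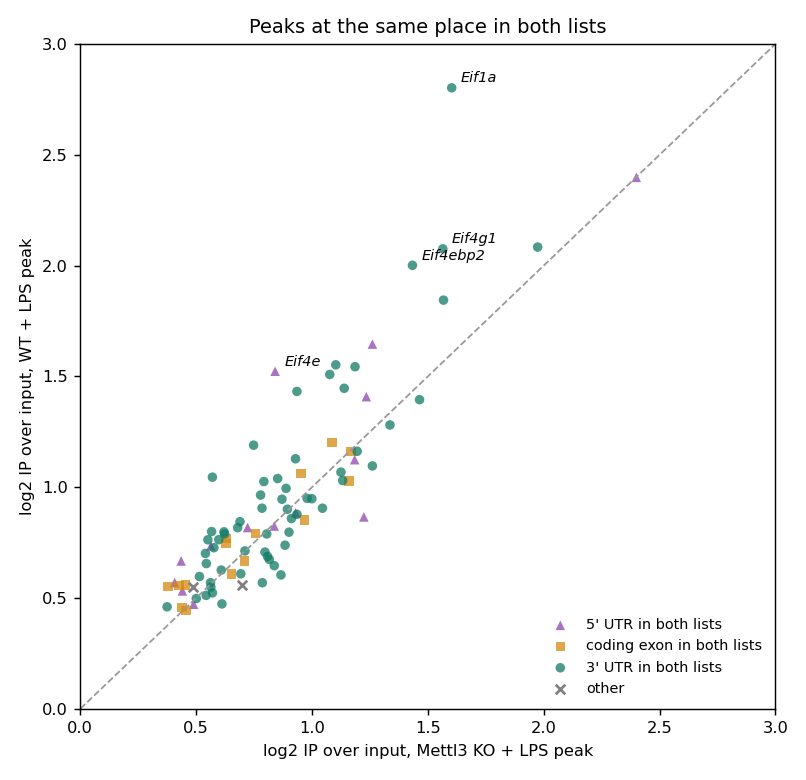
Each point is 1 of the 92 peak pairs at the same place, with the log2 of IP over input in Mettl3 KO on the horizontal axis and in WT on the vertical axis; the dashed diagonal marks equal values and the symbols give the annotated region. Most points lie near the diagonal, and Eif1a, Eif4e, Eif4ebp2 and Eif4g1 (named) lie furthest above it, on the side lower in KO.

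Set beside other parts of the translation machinery, the initiation factor genes had a median (−0.01) between those of the ribosomal protein genes of the cytosol and of mitochondria. The cytosolic list had 25 of 83 genes lower in KO (30.1%) and a median of 0.08, and the mitochondrial list 50 of 77 (64.9%) and −0.09. These are descriptions, and the differences between the lists were not tested. Of 41 related genes with a peak in both lists, 24 were lower in KO (58.5%) and the median was −0.10, beside 73.4% and −0.25 for all genes; the rest of 42 was Gspt2, with no peak.

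Genes of the signalling that acts on the initiation factors follow. For mTORC1 and MNK, the kinases that act on the 4E-BPs and on eIF4E, 11 of 12 genes were lower in KO (median difference −0.52), where 73.4% of all genes were, and 88.0% of those with a mean log2 of 1.5 or above. Not all 12 genes reached that range. For Rheb, Tsc1, Tsc2 and Mknk1, all lower in KO, the strongest peaks of the lists did not overlap. Rps6kb1, the S6 kinase, had 3.01 in KO and 3.66 in WT. Mlst8, an mTOR partner, had 1.52 in KO and 2.74 in WT. Larp1, which binds mRNAs of the translation machinery, had 1.79 in KO and 2.60 in WT. Mknk2 was the exception, with 1.58 in KO and 1.34 in WT.

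Of the 6 genes of eIF2alpha kinases and phosphatase subunits, 4 were lower, with a median of −0.56, beside 73.4% and −0.25 for all genes. Eif2ak2, which encodes the RNA-activated kinase PKR, had 2.30 in KO and 3.05 in WT. Ppp1r15b, a phosphatase subunit, had 1.97 in KO and 2.46 in WT, and Eif2ak3, the kinase PERK, had 1.36 in KO, in the 3′ UTR, and 2.06 in WT, in an exon. Of the 3 transcription factors translated under eIF2alpha phosphorylation 1 was lower. Atf5 had 2.08 in KO and 2.02 in WT, Ddit3 had 1.37 in KO and 1.47 in WT, and Atf4 had 1.33 in KO, in the 5′ UTR, and 0.92 in WT, in the 3′ UTR.

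Other initiation helpers were lower in 4 of 11 cases, with a median of 0.13, again beside 73.4% of all genes. Paip2b, an inhibitor of poly(A)-binding protein, had 2.39 in KO, in an intron, and 1.40 in WT, in the 3′ UTR. Paip1, which stimulates the same protein, had 0.85 in KO and 1.11 in WT, and Denr, a factor in ribosome recycling, had 1.04 in KO and 0.69 in WT. Elongation and termination genes were lower in 4 of 9 cases, a smaller share than that of all genes. Eef1d, an elongation exchange factor subunit, had 0.90 in KO, in an exon, and 2.25 in WT, in the 5′ UTR; these are different sites, so the values are not a change at 1 place. Gspt1, the termination factor eRF3, had 1.39 in KO and 1.81 in WT, and Eef1b2 had 1.50 in KO and 1.39 in WT.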

How the data were processed

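The 12 m6A libraries (IP and input, 3 replicates per group) were taken as described in the labels; per the labels' protocols, polyadenylated, fragmented RNA was precipitated with an m6A antibody and libraries were strand-marked. The labels name BV2 cells, but the protocol text mentions neuroblastoma cells. The submitters' processing notes list edgeR, HISAT2, HOMER, StringTie, FastQC and fastp, without versions or roles; no peak caller, genome build or pooling of replicates is stated in the labels or headers used here. Peaks carry the authors' deposited log2 ratio of IP to input. The p-value and the adjusted p-value of a peak are also the authors' deposited values. Every deposited p-value lay below 0.05.

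Starts in the lists count from 0 (5186 KO and 5098 WT peaks begin at the annotated gene start once 1 is added) and are printed 1-based. A peak's span is genomic and includes introns. A gene's value is its strongest peak in a list. Overlap meant at least 1 base on the same strand. Intervals are 95% Wilson intervals for shares and order-statistic intervals for medians. Tables and figures were made with matplotlib 3.10.9, scipy 1.17.1, numpy 2.4.6, pandas 2.3.3 and Python 3.11.15; the scripts were tested on simulated data. Promoter windows came from RefSeq, GRCm38.p6; the deposited gene start equalled a RefSeq start for 10 of the 38 genes with a window.

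Full values are given for genes with a peak in 1 list, the 3 strongest of each role list, the 10 lowest and 5 highest differences, genes whose strongest peak changed region, and genes with identical strongest peaks; this named 36 genes. Of related genes, the 3 strongest of each list and those with a difference of 1 or more were named. Mknk2, Rheb, Tsc1, Tsc2, Mknk1, Eif3c and Eif3g were named after their values were seen. The members, lists and alternatives were chosen with earlier results of these data known. Alternatives were other peak thresholds, peak lengths, gene summaries, list sizes, centring and overlap rules.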

Additional observations from a re-analysis of the deposited data

How the results depend on the processing

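The count of genes lower in KO (25 of 48) was recomputed under every alternative on peaks, gene values, list size and centring, and the other results under those that apply to them; same-place pairs were not recomputed. With peaks of at least 2-fold, 12 of 20 genes were lower (60%, beside 82.3% of all genes), 1 had a peak in KO only and 6 in WT only, the shared share was 81.5% of KO and 59.5% of WT peaks, the 3′ UTR share of KO peaks was 66.7%, and 14 of 18 related genes were lower. With peaks of at most 1000 bases, the median difference was 0.01 (20 of 43 lower, beside 58.2% of all genes), 1 gene had a peak in KO only and 3 in WT only, the shared shares were 65.4% of KO and 68.3% of WT peaks, and the KO 3′ UTR share was 62.5%. An overlap of 50% of both peaks gave shared shares of 54.8% of KO and 64.8% of WT peaks. Under all alternatives, counts of genes in 1 list only, shared shares and 3′ UTR shares were made for the initiation factor genes alone. Whether all genes move alike was not tested. After centring on the median of all genes, 13 of 48 were lower and the median was 0.24, since the same amount is added to every gene. WT-only genes numbered 2 with an adjusted p of at most 0.001 and 2 with equal numbers of peaks, the added gene being Eif4e3 both times. Keeping only genes whose strongest peaks overlap, an alternative chosen after seeing the data, gave 18 of 32 lower and a median of −0.09. That limit was not applied to all genes. Leaving out intronic peaks, also chosen then, gave 25 of 48. Among named genes, the order of KO and WT turned in 8 of 34 with short peaks, 9 of 35 with the mean over peaks, and 12 of 35 with the widest peak, and in 0 with the stricter adjusted p, the 2-fold threshold or equal list sizes. Such a turn can come from setting peaks at different sites against each other, as for Eif3l and Eif4g2. No paired analysis was possible because the lists carry no replicate columns; leaving out a replicate could not be run for the same reason. Depth per library is unknown, and its part in weak peaks called in 1 list only was not tested.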
